A study of Homo sapiens with 4 samples.

Results

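Splicing of nascent transcripts was followed for 10 genes whose proteins work beside SF3B1 at the branch site and the 3' splice site: U2AF1, U2AF2, PUF60, SUGP1, RBM17, HTATSF1, DDX46, DHX15, SNRPA1 and SNRPB2. They were chosen by function, and every annotated intron of their transcripts was taken. Of their 176 unique annotated introns, 156 had a read in at least 1 sample, out of 209481 such introns in 17782 genes in all. K562 is an established chronic myeloid leukaemia line. K562 cells that expressed SF3B1 K700E, a recurrent substitution in myeloid neoplasms, were compared with K562 cells with wild-type SF3B1 (WT), with 2 samples in each group. All 4 samples had received doxycycline at 1 µg/ml to switch on the allele and were harvested on day 4. PacBio long reads were made from chromatin-bound RNA after removal of its polyadenylated and ribosomal RNA. The labels do not say whether replicates were separate cultures or whether a line was a clone, so p-values measure only how these samples vary, and that variation may be technical.

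The branch site and the 3' splice site mark the end of an intron. U2AF2 binds the pyrimidine tract there and its partner U2AF1 reads the terminal AG, while PUF60 is a relative of U2AF2 that also binds pyrimidine-rich RNA. The U2 particle, which contains SF3B1 and the proteins SNRPA1 and SNRPB2, is then placed on the branch site with the help of the ATPase DDX46, and HTATSF1 binds SF3B1 before that step. RBM17 and SUGP1 also bind SF3B1, and SUGP1 activates the helicase DHX15, which takes spliceosomes apart.

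Among the 10 genes, RBM17 transcripts showed the largest gap between groups among those with enough reads to test. Splice junctions were carried by 17.9% of its read-intron overlaps in K700E cells and 54.8% in WT cells, but the difference did not pass the test over all genes. DHX15 and DDX46 were read deeply enough to follow single introns, and no intron of either passed. In DDX46, junctions that skip a pair of alternative exons made up 69.0% of the few junctions at that place in K700E cells and 25.0% in WT cells. That place was chosen for description with its counts known, and it missed the read minimum of the test. SNRPA1 could be tested as a gene and did not pass, and the other 6 genes had too few reads for a test.

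Efficiency here is junction reads as a share of all reads over an intron, and a gene's efficiency is the same share over the sum of its introns. A long read that crosses several introns counts once in each, so read-intron overlaps are more numerous than molecules. Over the series, overlaps numbered 459681 and 909621 in the K700E samples and 1346733 and 1185006 in the WT samples, so K700E replicate 1 was the shallowest. The members had reads over 89 and 102 introns in the K700E samples and 110 and 135 in the WT samples. The wild-type and mutant alleles of SF3B1 cannot be told apart in these tables, so the genotype was not checked. The labels call the cells epithelial. Of 10 genes known from K562 and erythroid cells 8 had reads, 788 and 2038 overlaps in the K700E samples and 3048 and 4071 in the WT samples, while KLF1 and EPOR had none. Most of these overlaps came from TFRC alone, with 730 and 1716 in K700E and 2816 and 3571 in WT. GATA1 had 6 and 10 in K700E and 4 and 11 in WT. Of 7 epithelial genes 5 had reads, 15 and 33 overlaps in the K700E samples and 12 and 22 in the WT samples, while KRT5 and CLDN4 had none.

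DHX15 had 202 and 405 overlaps in the K700E samples and 953 and 531 in the WT samples. DDX46 had 204 and 425 in the K700E samples and 231 and 395 in the WT samples. SNRPA1 had 50 and 64 in K700E and 164 and 73 in WT, and RBM17 34 and 52 in K700E and 45 and 38 in WT. These 4 genes met the minimum of 10 overlaps in every sample. U2AF1, SUGP1 and U2AF2 had at most 30 in any sample, PUF60 at most 19, SNRPB2 at most 9 and HTATSF1 at most 5. PUF60 had 0 overlaps in both K700E samples.

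**Figure D1:**
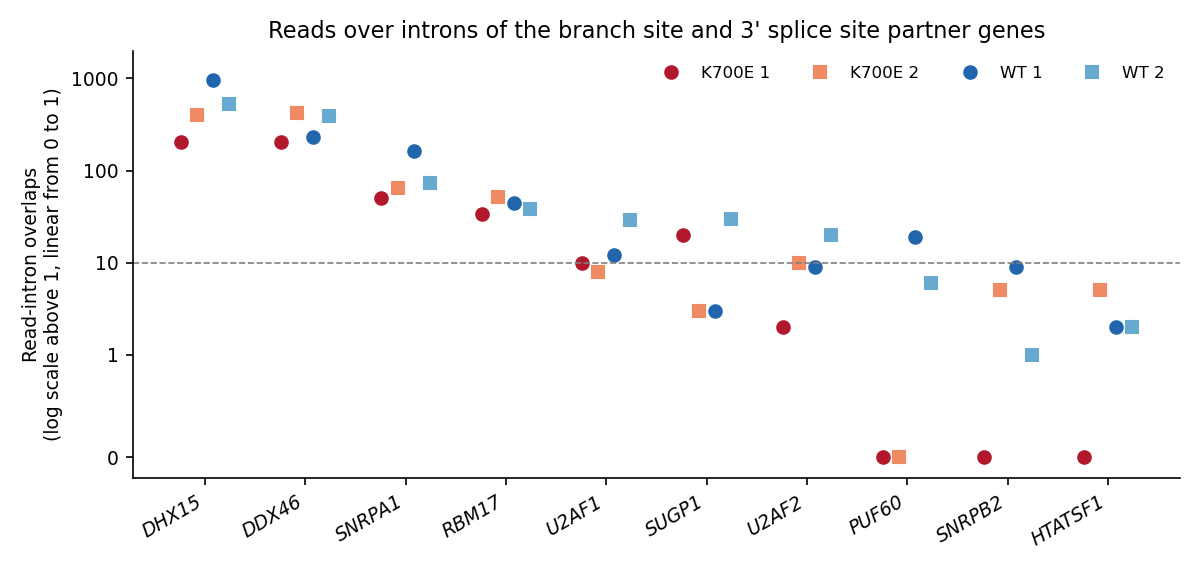
Read-intron overlaps (y axis, log scale above 1) over each of the 10 genes (x axis) in the 2 K700E and 2 WT samples, with the minimum of 10 as a dashed line. DHX15, DDX46, SNRPA1 and RBM17 lie above the line in all samples, and PUF60 lies at 0 in both K700E samples.

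Efficiency could be tested in 4 member genes, and 0 passed a false discovery rate of 0.05 in edgeR's quasi-likelihood test. Over all 5088 genes tested 0% passed, with 169 genes at an unadjusted p under 0.05, and DESeq2 called 1 gene, which was no member. Of the 4 genes 3 were lower and 1 was higher in K700E cells, with a median difference of -4.49 percentage points, against -2.54 over all genes. Among these 4, in RBM17 alone both K700E samples lay below both WT samples, a separation seen in 21.1% of all genes. None of the 4 was higher in both K700E samples, as 10.3% of all genes were.

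**Figure D2:**
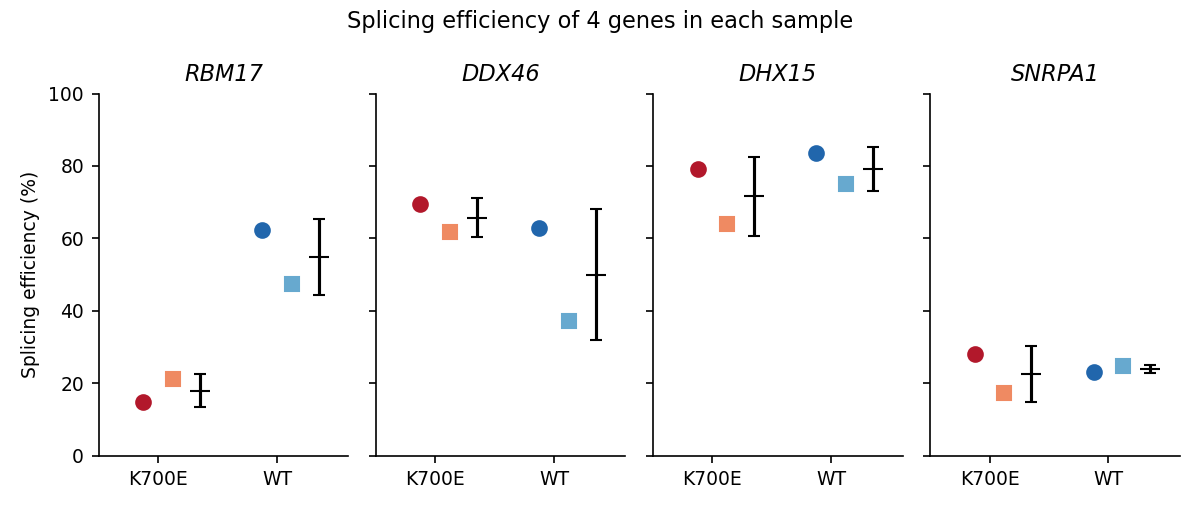
Splicing efficiency in percent (y axis) of the 4 genes with enough reads, with 1 point per sample and black bars for the mean and SD of 2 samples. The groups separate in RBM17, at 14.7% and 21.2% in K700E against 62.2% and 47.4% in WT, and overlap in DDX46, DHX15 and SNRPA1.

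RBM17 (also called SPF45) is a G-patch protein that binds SF3B1 and takes part in 3' splice site selection. It lies on chromosome 10, plus strand, and its efficiency was 14.7% and 21.2% in the K700E samples and 62.2% and 47.4% in the WT samples. Both K700E samples lay far below both WT samples. The means were 17.9% ± 4.56 in K700E and 54.8% ± 10.5 in WT (SD, n = 2 each), a difference of -36.9 percentage points. In edgeR's quasi-likelihood test the unadjusted p was 0.0151, the 45th smallest of all genes, and the adjusted p was 1.00. A difference of this size in either direction was found in 58 genes. The difference was close to this where overlapping introns were reduced to the most used, 19.4% ± 3.10 in K700E and 56.2% ± 14.8 in WT, and leaving out each sample in turn gave -29.4 to -44.3 percentage points.

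No single RBM17 intron reached 10 reads in every sample, and the highest number of junction reads at any of them was 5. Introns 1 to 5 of the main transcript, ENST00000379888, were spliced in 0 of 9 and 7 of 20 overlaps in the K700E samples, against 15 of 18 and 5 of 6 in the WT samples. Introns 6 to 11, without intron 8, were spliced in 5 of 16 and 1 of 14 overlaps in K700E and 9 of 13 and 10 of 25 in WT. Intron 8 was left out because it overlaps an annotated intron with equally many junction reads and more reads over it. The share was thus lower in both K700E samples on both sides of the gene. A long read can cross introns on both sides, so the sides are not independent. On each side the median intron had 2 reads in K700E replicate 1 and 3 in K700E replicate 2. The gap may therefore rest on few molecules. This split was made after the values were seen, and how often such sums separate over all genes was not computed. In intron 2 (6097189 to 6101270), 0 of 2 and 2 of 3 reads were spliced in K700E and 3 of 3 and 3 of 3 in WT. In intron 10 (6114148 to 6115238), 0 of 2 and 0 of 1 were spliced in K700E and 1 of 1 and 5 of 5 in WT. The last intron, 141 nt long, was seldom spliced anywhere, with 0 of 2 and 0 of 3 reads in K700E and 0 of 2 and 1 of 8 in WT. In K700E replicate 1 the spliced reads came from introns 6 and 7 alone. Intron 4 (from 6105098) ends at either of 2 annotated 3' splice sites 3 nt apart, 6106140 and 6106143. The tables do not resolve sites this close: both carried the same counts, with 0 of 3 and 3 of 11 reads spliced in K700E and 3 of 6 and 2 of 3 in WT.

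Read-intron overlaps of RBM17, scaled by library size and TMM factors (CPM), stood at 73.3 and 59.0 CPM in the K700E samples and 40.3 and 36.0 CPM in the WT samples. Both K700E samples were above both WT samples, as in 18.2% of all 5124 genes tested. The log2 fold change was 0.79 ± 0.76 (standard error), with an edgeR adjusted p of 0.875. For nascent reads 4 genes of all tested passed, or 0.0781%, and none was a member.

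**Figure D3:**
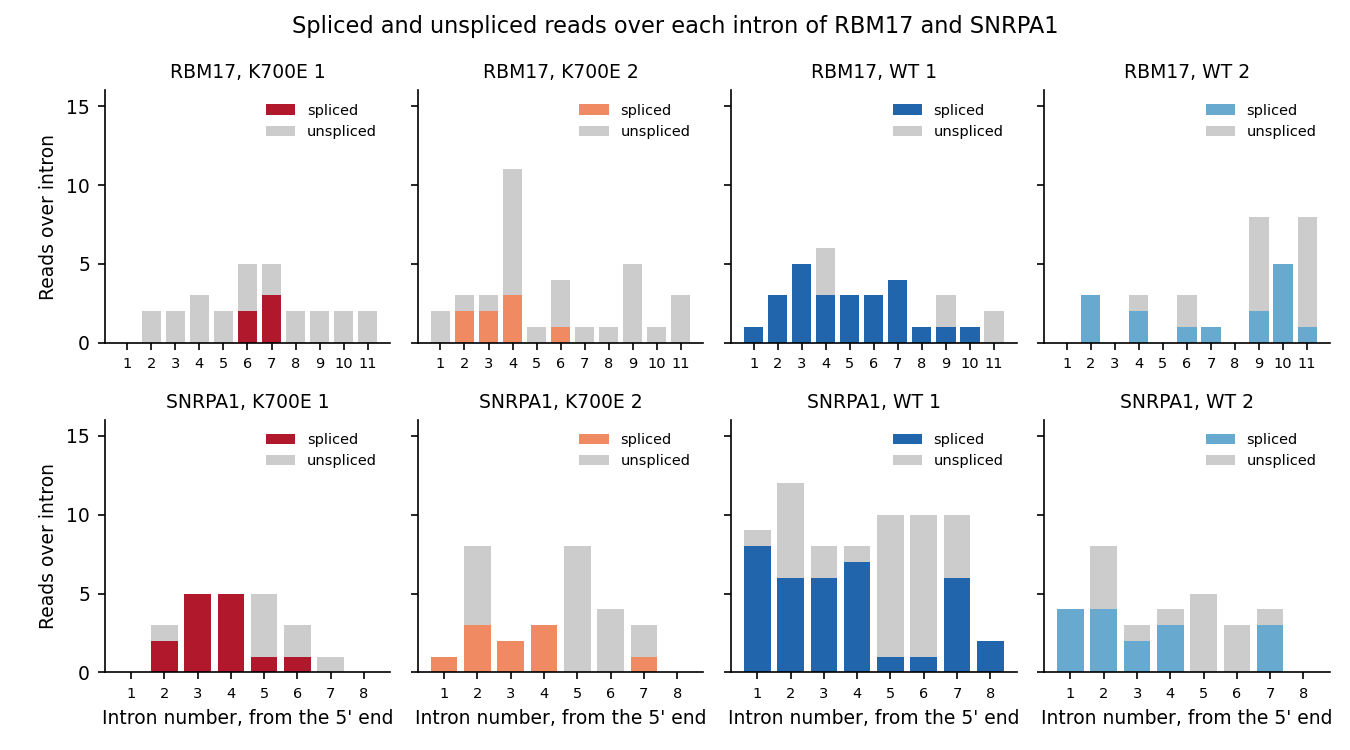
Reads over each intron (y axis), spliced in colour and unspliced in grey, for the numbered introns of RBM17 and SNRPA1 (x axis) in each sample. Unspliced reads prevail in both RBM17 panels of K700E, and SNRPA1 introns 5 and 6 show at most 1 spliced read in any sample.

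The 3 genes whose efficiency pattern over the 4 samples was nearest to that of RBM17 were MINDY1, RBM14-RBM4 and APBA2, at Euclidean distances of 5.61, 8.90 and 9.45 percentage points. MINDY1 stood at 10.5% and 21.7% in the K700E samples and 60.7% and 44.0% in the WT samples, from 19 to 28 overlaps a sample.

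SUGP1, a G-patch protein that joins SF3B1 to DHX15, had 20 and 3 overlaps in the K700E samples and 3 and 30 in the WT samples. Of these, 7 and 3 were spliced in K700E and 0 and 2 in WT. Both K700E shares were higher, but they rest on few molecules: in K700E replicate 1 all 7 spliced overlaps lay at introns 1 and 2, with 4 and 3 junction reads. Of all genes tested 10.3% were higher in both K700E samples, and the share among genes below the minimum was not computed. The 3 reads of WT replicate 1 all lay over intron 5, which was spliced in 0 of 7 WT reads and had no reads in K700E. HTATSF1, the human counterpart of yeast Cus2, had 0 and 5 overlaps in K700E, 3 of them spliced, and 2 and 2 in WT, with 0 and 2 spliced. Neither gene could be tested.

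At the level of single introns, 17 member introns had at least 10 reads in every sample, 12 of DHX15 and 5 of DDX46. The test takes introns that are neither spliced in all reads nor in none, which left 14. None of the 14 passed: the edgeR adjusted p-values lay between 0.984 and 0.990 and none had an unadjusted p under 0.05. Over all 5093 introns tested 5 passed, or 0.0982%, and 154 had an unadjusted p under 0.05. Of the 14 introns 6 were higher and 8 lower, with a median difference of -0.55 percentage points against -1.67 over all. In 2 of them both K700E samples were below both WT samples, which 19.9% of all introns showed, and in 1 both were above, which 9.19% showed.

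DHX15 is a DEAH-box helicase, the human form of yeast Prp43, which releases the excised intron and is activated by G-patch proteins such as SUGP1. It lies on chromosome 4, minus strand, with 13 introns in ENST00000336812. Its efficiency was 79.2% and 64.0% in the K700E samples and 83.5% and 75% in the WT samples. The groups overlapped, and the means of 71.6% ± 10.8 in K700E and 79.2% ± 6.06 in WT differed by -7.66 percentage points (edgeR adjusted p = 1.00). These sums include annotated introns that almost no read uses. Where overlapping introns were reduced to the most used, efficiency was 93.0% ± 5.63 in K700E and 95.8% ± 0.170 in WT. The difference was -0.031 percentage points without K700E replicate 2 and -11.4 with introns of a ratio above 1 left out.

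Along DHX15, introns 1 to 6 were spliced almost completely in every sample, in 100% and 98.0% of overlaps in K700E and 99.2% and 97.7% in WT. Introns 7 to 13 were spliced in 92.9% and 70.5% in K700E and 91.4% and 92.5% in WT. In this downstream stretch K700E replicate 2 stood apart, while K700E replicate 1 lay with the WT samples. The split was made after the values were seen.

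The slowest of the deeply read DHX15 introns was intron 9 (24540300 to 24540839, 540 nt). It was spliced in 20 of 24 and 11 of 29 reads in the K700E samples and 82 of 108 and 39 of 48 in the WT samples. The 95% Wilson interval in K700E replicate 2, 22.7 to 56.0%, lay below those of the other samples, 64.1 to 93.3% in K700E replicate 1 and 67.1 to 83.0% and 68.1 to 89.8% in WT. These intervals cover counting error only. The difference of -18.0 percentage points (edgeR adjusted p = 0.984) turned to 4.75 without K700E replicate 2. Intron 8 (24540949 to 24541872) had the smallest p of the member introns, 0.0840 in edgeR. It was spliced in 19 of 20 and 15 of 18 reads in K700E and 96 of 97 and 46 of 46 in WT, or 89.2% ± 8.25 and 99.5% ± 0.729. Both K700E samples were below both WT samples there, and the difference of -10.3 percentage points was -4.48 without K700E replicate 2. Intron 7 (24542023 to 24542939) was spliced in 16 of 16 and 21 of 24 reads in K700E and 110 of 112 and 47 of 48 in WT, where the difference of -4.32 turned to 1.93 without K700E replicate 2. All 3 neighbouring introns were lowest in K700E replicate 2, and long reads can cross them together, so they are not independent.

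Upstream, intron 6 (24543027 to 24548854) was the one of the 14 tested member introns with both K700E samples above both WT samples: all of 14 and 18 reads were spliced in K700E, against 85 of 87 and 38 of 40 in WT. Intron 3, the longest of the gene at 14243 nt, was spliced in 19 of 19 and 37 of 38 reads in K700E and 100 of 101 and 46 of 46 in WT. Intron 1 (24576679 to 24584322) contains an annotated exon of 223 nt. Every read of every sample skipped it, 12 and 36 in K700E and 40 and 37 in WT, except 1 in WT replicate 2. That site was the only member junction that entered the test of 3' splice site choice, and its share of 0% in K700E and 1.32% ± 1.86 in WT did not pass (edgeR adjusted p = 0.824). Of 362 junctions tested over all genes 0% passed with edgeR, 10 had an unadjusted p under 0.05, and DESeq2 also called 0.

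Overlaps of DHX15 stood at 436 and 460 CPM in the K700E samples and 853 and 503 CPM in the WT samples. Both K700E samples were lower, as in 17.3% of all genes, with WT replicate 1 well above the rest. The log2 fold change was -0.60 ± 0.57 (standard error, edgeR adjusted p = 0.874), and -0.19 without WT replicate 1.

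**Figure D4:**
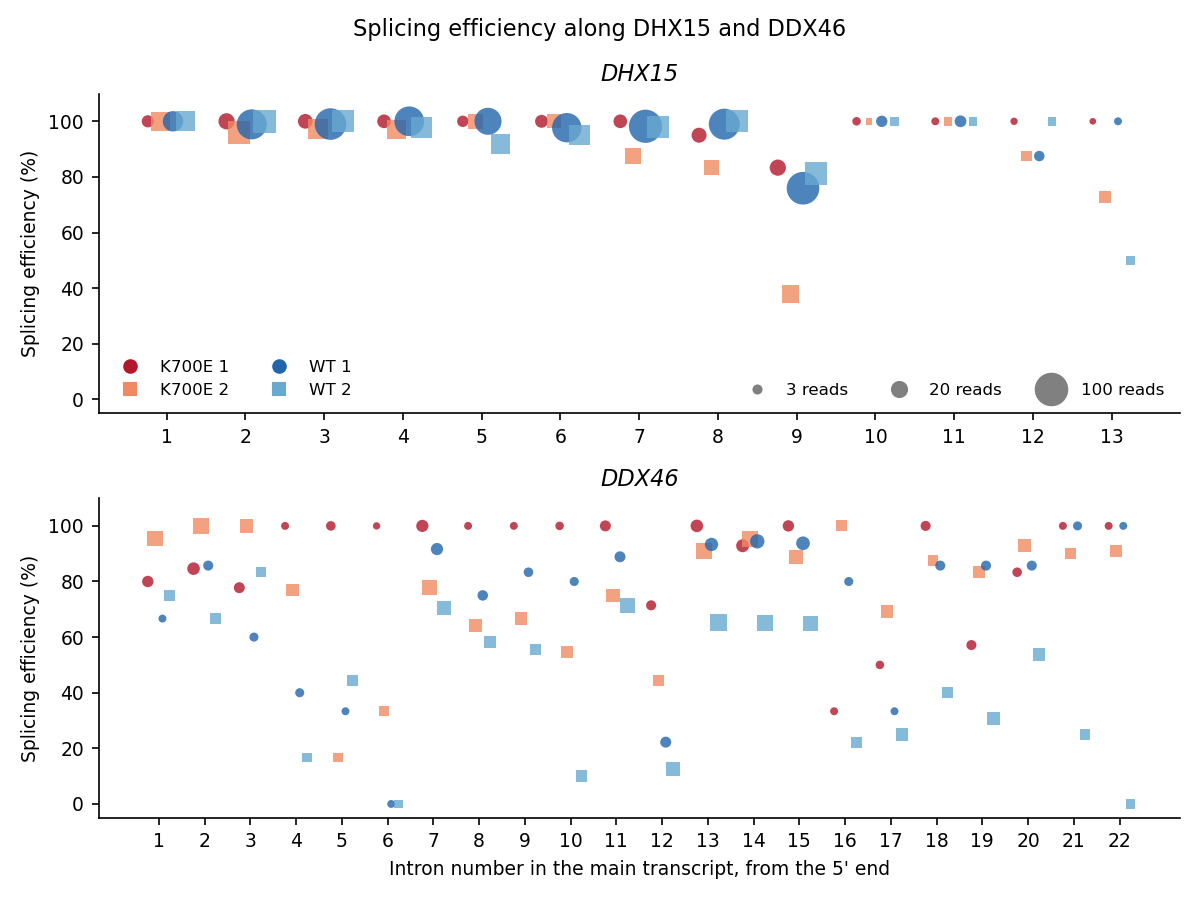
Splicing efficiency in percent (y axis) by intron number (x axis) along DHX15 and DDX46, with 1 symbol per sample whose area grows with the number of reads. DHX15 introns 1 to 6 lie near 100% in all samples and intron 9 of K700E replicate 2 lies at 37.9%; most DDX46 symbols of WT replicate 2 lie below those of the other samples.

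DDX46, the human form of yeast Prp5, is the ATPase that helps U2 join the branch site. It lies on chromosome 5, plus strand, and has 22 introns in ENST00000354283. Between its exons 12 and 13 lie 2 further annotated exons, shown here because junction counts into and past them did not overlap between the groups. Capitals mark the stop codon that ends the reading frame of an annotated nonsense-mediated decay transcript, ENST00000507392. The sequences were read from GENCODE 29 transcripts (GRCh38, the build of the files).
DDX46 49-nt exon, chr5:134789216-134789264, plus strand: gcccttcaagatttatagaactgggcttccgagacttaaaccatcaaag
DDX46 117-nt exon, chr5:134790106-134790222, plus strand: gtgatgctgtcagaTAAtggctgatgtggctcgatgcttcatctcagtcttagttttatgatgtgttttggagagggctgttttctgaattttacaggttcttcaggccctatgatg

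From the 5' splice site at 134788592, the junction to exon 13 (134788592 to 134790469), which skips both exons, had 5 and 4 reads in the K700E samples and 2 and 2 in the WT samples. The junction to the 117-nt exon had 2 and 2 reads in K700E and 4 and 4 in WT. The junction to the 49-nt exon had 0 and 0 in K700E and 2 and 2 in WT. At each of these 3 junctions every K700E count lay on one side of the WT counts. Skipping thus made up 71.4% and 66.7% of the junctions in K700E and 25.0% and 25.0% in WT. The 3 junctions compete for the same reads, so they are not independent. How often such a separation occurs over all junctions was not computed. The junction from the 49-nt exon to exon 13 had 0 and 0 reads in K700E and 1 and 0 in WT, so the groups overlapped there. The 95% Wilson intervals were wide, 35.9 to 91.8% in K700E replicate 1 and 7.15 to 59.1% in each WT sample, and they overlap. With 6 to 8 junctions per sample the site missed the minimum of 10. With a minimum of 5 the edgeR adjusted p of skipping was 0.864 (unadjusted, 0.0847). The site was chosen for description with its counts known.

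On the downstream side, the intron between the 117-nt exon and exon 13 (134790223 to 134790469, 247 nt) had enough reads for the test. It was spliced in 2 of 11 and 2 of 29 reads in the K700E samples and 5 of 18 and 6 of 25 in the WT samples. Both K700E samples, at 18.2% and 6.90%, lay below both WT samples, at 27.8% and 24%, but the test did not pass (edgeR adjusted p = 0.984). This intron is spliced out separately only in reads that include the exon, so its share is not independent of the skipping share.

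**Figure D5:**
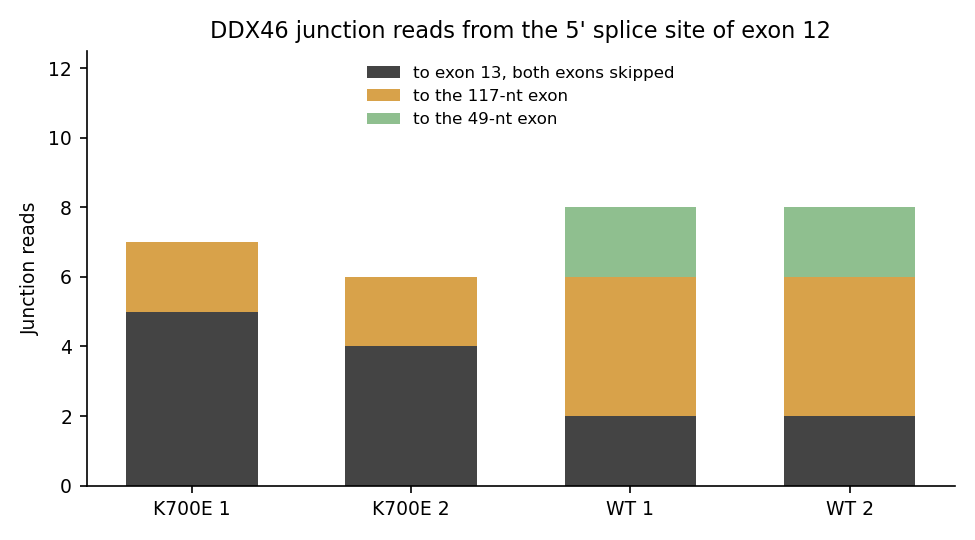
Junction reads (y axis) of DDX46 from the 5' splice site of exon 12 in each sample (x axis), stacked by where they lead. Junctions that skip both exons number 5 and 4 in K700E and 2 and 2 in WT, and the 49-nt exon was joined in the WT samples alone, by 2 reads each.

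Over the whole of DDX46 and in its introns 13 to 15, the efficiency was higher in K700E cells on average, but the gap was small without WT replicate 2. Over the gene it was 69.6% and 61.9% in the K700E samples and 62.8% and 37.2% in the WT samples. WT replicate 1 lay between both K700E samples and WT replicate 2 lay far below. The difference of 15.8 percentage points (65.7% ± 5.46 in K700E, 50.0% ± 18.1 in WT; edgeR adjusted p = 1.00) fell to 2.97 without WT replicate 2 and stood at 28.5 without WT replicate 1. Intron 13 (134790553 to 134794849) was spliced in 13 of 13 and 20 of 22 reads in K700E and 14 of 15 and 17 of 26 in WT. Intron 14 (134795015 to 134795987) was spliced in 13 of 14 and 20 of 21 in K700E and 17 of 18 and 15 of 23 in WT. Intron 15 (134796151 to 134807747), which is 11597 nt long, was spliced in 10 of 10 and 16 of 18 in K700E and 15 of 16 and 13 of 20 in WT. In each of them WT replicate 2 was lowest, near 65%. The differences of 16.1, 14.2 and 15.1 percentage points became 2.12, -0.40 and 0.69 without WT replicate 2, and the smallest edgeR p of the gene was 0.134.

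Upstream of the alternative exons, introns 1 to 11 of DDX46 were spliced in 91.9% and 77.6% of overlaps in the K700E samples and 72.7% and 55.9% in the WT samples. The groups did not overlap there, and how often such sums separate over all genes was not computed. Introns 13 to 22 were spliced in 87.1% and 89.1% in K700E and 89.5% and 47.9% in WT, where WT replicate 1 was the highest. The split was made after the values were seen. The 337-nt intron 17 was among the slower ones in every sample, with 2 of 4 and 9 of 13 reads spliced in K700E and 1 of 3 and 3 of 12 in WT. Overlaps of DDX46 stood at 440 and 482 CPM in the K700E samples and 207 and 374 CPM in the WT samples. Both K700E samples were higher, as in 18.2% of all genes. The log2 fold change of 0.67 ± 0.58 (edgeR adjusted p = 0.857) was 0.28 without WT replicate 1.

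SNRPA1, the U2 protein A', binds U2 snRNA together with SNRPB2. It lies on chromosome 15, minus strand, with 8 introns in ENST00000254193. Introns 5 and 6 and an annotated 57-nt intron, all seldom or never spliced, end in the sequences below, shown beside the 337-nt intron of DDX46. Each holds the last 40 bases of the intron and 5 of the exon, and the capitals mark the last 2 bases of the intron. Each was read from a retained-intron transcript of GENCODE 29.
SNRPA1 intron 5, 614 nt, chr15:101286289-101286333, minus strand: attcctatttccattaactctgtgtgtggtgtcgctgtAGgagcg
SNRPA1 intron 6, 412 nt, chr15:101285797-101285841, minus strand: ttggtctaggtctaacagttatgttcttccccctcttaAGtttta
SNRPA1 annotated 57-nt intron, chr15:101286846-101286890, minus strand: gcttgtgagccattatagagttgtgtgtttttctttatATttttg
DDX46 intron 17, 337 nt, chr5:134811656-134811700, plus strand: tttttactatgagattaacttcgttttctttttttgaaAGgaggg

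In the 20 bases before these last 2, the share of C and T was 60% in SNRPA1 intron 5, 85% in intron 6, 70% in the 57-nt intron and 80% in DDX46 intron 17. Over 58821 windows of the same kind, from introns of over 60 nt in all genes, the median was 75%, with quartiles of 65 and 80%, and 99.0% of them ended in AG. The tract of intron 5 was below the lower quartile and that of intron 6 above the upper one. The 57-nt intron ends in AT, and no read carried its junction: 0 of 9 and 0 of 11 in the K700E samples and 0 of 16 and 0 of 8 in the WT samples.

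SNRPA1 efficiency was 28.0% and 17.2% in the K700E samples and 23.2% and 24.7% in the WT samples. The WT samples lay between the K700E samples. The means of 22.6% ± 7.65 in K700E and 23.9% ± 1.05 in WT differed by -1.32 percentage points (edgeR adjusted p = 1.00), and by 4.09 without K700E replicate 2. The sums behind them include annotated introns without any spliced read. Where overlapping introns were reduced to the most used, efficiency was 63.6% and 34.5% in K700E and 53.6% and 51.6% in WT. Introns 5 and 6 had at most 1 spliced read in any sample. Intron 5 was spliced in 1 of 5 and 0 of 8 reads in K700E and 1 of 10 and 0 of 5 in WT, and intron 6 in 1 of 3 and 0 of 4 in K700E and 1 of 10 and 0 of 3 in WT. Their neighbour intron 4 (101287011 to 101287655), of 645 nt, was spliced in 5 of 5 and 3 of 3 reads in K700E and 7 of 8 and 3 of 4 in WT. Intron 3 was spliced in all of 5 and 2 reads in K700E and in 6 of 8 and 2 of 3 in WT. Both introns were higher in K700E samples, from 2 to 8 reads each. Of all introns with enough reads to test, 9.19% were higher in both K700E samples. How often this occurs at so few reads was not computed. Introns 1 to 4 together were spliced in 92.3% and 64.3% of overlaps in K700E and 73.0% and 68.4% in WT. Introns 5 to 8 were spliced in 22.2% and 6.67% in K700E and 31.2% and 25.0% in WT, so both K700E samples were lower there. The split was made after the values were seen, and how often such sums separate over all genes was not computed. Of introns 5 to 8, intron 7 carried most of the spliced reads in WT, with 6 of 10 and 3 of 4 reads spliced, against 0 of 1 and 1 of 3 in K700E. Intron 8 had reads in WT replicate 1 alone, where 2 of 2 were spliced. An annotated 120-nt intron near the start of the gene (101293173 to 101293292) was spliced in 0 of 3 and 0 of 10 reads in K700E and 0 of 23 and 0 of 10 in WT. It lies inside intron 1 and shares its 3' splice site. Intron 1 was spliced in 1 of 1 read in K700E replicate 2 and in 8 of 9 and 4 of 4 reads in WT. K700E replicate 1 had no read over it. Reads spliced over intron 1 can count as unspliced in the 120-nt intron, so its values cannot tell retention from splicing of intron 1. Overlaps of SNRPA1 stood at 108 and 72.6 CPM in K700E and 147 and 69.1 CPM in WT, and the groups overlapped. The log2 fold change of -0.27 ± 0.73 (edgeR adjusted p = 0.978) was 0.35 without WT replicate 1.

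SNRPB2, the U2 protein B'', had 0 and 5 overlaps in the K700E samples and 9 and 1 in the WT samples, and 4 of the 5 were spliced in K700E replicate 2, against 5 of 9 and 1 of 1 in WT. Its intron 2 held all 4 unspliced overlaps of WT replicate 1, where 1 of 5 was spliced.

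U2AF1 is the small U2AF subunit that contacts the AG. Its transcripts carry either of 2 mutually exclusive exons of 67 nt, which are shown because they decide which of the 2 main U2AF1 isoforms is made. Capitals mark the 23 bases in which they differ.
U2AF1 upstream exon, chr21:43101366-43101432, minus strand: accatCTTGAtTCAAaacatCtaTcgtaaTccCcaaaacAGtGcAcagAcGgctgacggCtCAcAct
U2AF1 downstream exon, chr21:43100453-43100519, minus strand: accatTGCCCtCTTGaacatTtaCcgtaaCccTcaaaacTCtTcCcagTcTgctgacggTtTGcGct

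Junctions into these exons were rare. From exon 2 (5' splice site at 43104314), the upstream exon was joined by 1 and 0 reads in the K700E samples and 0 and 2 in the WT samples, and the downstream exon by 0 and 0 in K700E and 0 and 2 in WT. Intron 1 was spliced in 3 of 4 reads in K700E replicate 1, against 7 of 7 and 5 of 5 in WT. K700E replicate 2 had no read over intron 1. Over the gene, 4 of 10 and 0 of 8 overlaps were spliced in K700E and 8 of 12 and 16 of 29 in WT. Both K700E samples were lower, but the gene missed the minimum. Of all genes tested 21.1% were lower in both K700E samples, and the share among genes below the minimum was not computed. The annotation holds a near-identical copy, U2AF1L5, also on chromosome 21: of 25 distinct U2AF1 exon sequences 14 are also exon sequences of U2AF1L5. Reads may be split between the copies, so both values are uncertain. U2AF1L5 had 4 and 24 overlaps in K700E and 32 and 20 in WT. With the copies summed, 50.0% and 34.4% of overlaps were spliced in K700E and 65.9% and 49% in WT. The means were 42.2% ± 11 in K700E and 57.4% ± 12 in WT, and the groups overlapped.

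U2AF2, the large subunit that binds the pyrimidine tract, had 2 and 10 overlaps in the K700E samples and 9 and 20 in the WT samples. Of these, 0 and 7 were spliced in K700E and 6 and 4 in WT, so the samples of each group lay far apart and the groups overlapped. PUF60 (chromosome 8) had 0 and 0 overlaps in K700E and 19 and 6 in WT, where 11 and 5 were spliced. No intron of it had over 3 reads in a sample, and a count of 0 allows up to 3 by counting error, so the lack of PUF60 reads in K700E cannot be told from low coverage.

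Of 31 other genes of the U2 particle, branch site and 3' splice site, 30 had reads and 16 could be tested, of which 5 were higher and 11 lower in K700E and 0 passed over all genes. In 2 of the 16 both K700E samples were above both WT samples, against 10.3% of all genes, and in 5 both were below, against 21.1%. Their median difference was -4.74 percentage points, against -2.54 over all genes. The smallest p of the list belonged to DDX42, a relative of DDX46 that also binds SF3B1, with 34.4% ± 7.33 in K700E and 56.1% ± 14.9 in WT (edgeR adjusted p = 1.00, unadjusted 0.0630). SF3B1 itself stood at 70.0% and 63.7% in the K700E samples and 76.6% and 74.6% in the WT samples (edgeR adjusted p = 1.00). DHX38, the helicase of the second splicing step, stood at 68.7% ± 5.30 in K700E and 78.9% ± 0.715 in WT (edgeR adjusted p = 1.00).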

How the data were processed

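Per the labels' protocols, chromatin RNA was isolated with α-amanitin present, ligated to a 3' adapter and amplified by PCR without molecular identifiers that the labels mention. Per the submitters' processing notes, cutadapt, minimap2 and the hg38 build were used; how they were set and how reads were assigned is not stated in the labels or headers. The authors deposited, per annotated intron and sample, counts of reads over the intron and of reads with its junction, and their ratio. Tables of RNA 3' ends were not used, because their rows carry no identifiers. The K700E tables carry the in-file labels MUT2 and MUT3.

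Rows were placed on GENCODE 29 by transcript, intron number, start and strand (87.3 to 87.6% of rows). Identical introns were counted as 1, and junction reads above the reads over the intron were set equal to them. Of introns with a common 5' splice site and 3' splice sites 1 to 7 nt apart, 99.2% had identical junction counts, so sites under 12 nt apart were merged in the test of choice. A read spliced to an unannotated site counts as unspliced, and so can a read spliced over an overlapping annotated intron. For example, an annotated 4041-nt intron inside DHX15 intron 1 was spliced in 0 of 12 and 0 of 36 reads in K700E and 0 of 40 and 0 of 38 in WT. Intron 1 itself was spliced in 12 and 36 reads in K700E and 40 and 37 in WT. A low share in an intron that overlaps another is therefore not a measure of retention.

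Spliced and unspliced counts were tested as paired columns in edgeR 4.0.16 (R 4.3.3; quasi-likelihood F test, Benjamini-Hochberg over everything tested), with a dispersion of 0 for introns and choice and an estimated one for genes and nascent reads (TMM), at a minimum of 10 reads in every sample. With a dispersion of 0 all introns in effect share 1 estimate of the spread between replicates. Each fit was tested on simulated data. In those data, a change of 4 was called in 47.5% of introns, 84% of genes, 51.1% of junctions for choice and 100% of genes for nascent reads. A change of 2 was called in 1%, 14%, 9.3% and 18.2%. Calls among unchanged features numbered 7 for gene efficiency and 0 for the other tests. Most changes of 2 were thus missed, so a feature that did not pass may still differ between groups. DESeq2 1.42.0 was an alternative. All members are named, and per gene at most 3 tested introns, by smallest p and largest difference. The members and gene lists were chosen with earlier results of these data known.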

Additional observations from a re-analysis of the deposited data

How the results depend on the processing

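Among 14 results on single genes and introns, 143 values under alternatives were computed: 138 kept their direction, 5 changed it and 0 passed, with a smallest adjusted p of 0.459. Leaving out each sample in turn gave -6.73 to 4.09 percentage points for SNRPA1 efficiency, -0.74 to 0.35 (log2) for SNRPA1 reads, -0.397 to 28.8 points for the DDX46 intron at 134795015, -40.7 to 4.75 for the DHX15 intron at 24540300 and -10.6 to 1.93 for that at 24542023. Over all features, 5 introns passed; 1 passed with an estimated dispersion, 0 with DESeq2, 3 with the replicate block and 0 to 10 with a sample left out. For genes the count of 0 became 1 with DESeq2 and 1 with the most used of overlapping introns. For nascent reads the count of 4 became 1 with library totals, 11 with DESeq2, 30 with no filter, 0 with the intron with the most reads and 0 to 57 with a sample left out. For 3' splice site choice it was 0 under every alternative run. The cause of these shifts was not tested. The replicate block left the counts at 0 for genes, 4 for nascent reads and 0 for choice. Same-numbered samples deviated with correlations of -0.161 for introns, -0.0588 for genes and -0.0747 for nascent reads. Counting error at this depth can hide a pairing, so these values do not decide whether samples were made in pairs. A crossed pairing, added after seeing the data, called 5 introns. Summing U2AF1 with U2AF1L5 was also chosen after seeing the data. Depth limits all results: 6 of the 10 genes missed the minimum.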
